A study of Mus musculus with 8 samples.

Results

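Melanoma cells with a high mean score over Cck, Kcnj13, Mgll, Trpm1, Gsta4 and Tspan10, and not high RNA of each, were examined in 8 subcutaneous B16F10 tumours. A barcode, which stands for 1 captured cell, was kept with 200 to 5000 genes, at most 7.5% of its unique molecular identifiers (UMIs, which count RNA molecules) from mitochondrial genes, at least 4000 UMIs, and at least 0.3% of UMIs from the pigment genes Mlana, Pmel, Dct, Tyr and Tyrp1. Of 41925 barcodes, 22783 passed as melanoma. Each was given the mean over the 6 genes of the natural log of 1 + count per 10000, and the top 10%, 2278 barcodes, were taken as members, leaving 20505 other melanoma barcodes. Members are the upper range of a continuous score and are not treated as a separate cell type. Whether they hold a distinct subset was not tested.

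The study asked how loss of the stress-response transcription factor ATF4 in the host, and not in the injected melanoma cells, alters a tumour and its fibroblasts. B16F10, a melanoma line of C57BL/6 mice, was grown to 300 mm3 in 4 Atf4wt/wt and 4 Atf4D/D hosts aged 12 weeks, and each tumour gave 1 library of 10x 3′ single-cell RNA. Both groups carried the ubiquitous Rosa26::CreERT2 driver and received tamoxifen, so that the recombinase and the drug were shared, and the Atf4D/D hosts carried the floxed Atf4 allele. By label 2 of 4 Atf4wt/wt and 3 of 4 Atf4D/D hosts were male. All tumours come from the same injected line. Libraries held 37283598 to 74942137 UMIs, and the members of a tumour summed to 1793375 to 4738324 UMIs.

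The labels were checked on host barcodes, those with under 0.3% pigment UMIs and at least 0.1% of UMIs in immune or fibroblast genes. Atf4 stood there at 277, 259, 275 and 236 CPM (UMIs of the gene per 1000000 UMIs of the summed cells) in Atf4wt/wt tumours 1 to 4, and at 98.3, 71.9, 98.2 and 51.2 CPM in Atf4D/D tumours 1 to 4, without overlap. Host sex did not hold up in the same way. Atf4wt/wt tumours 1 and 3, labelled male, had 529 and 455 CPM of Xist, the RNA of the inactive X, and no UMI of the Y-linked Ddx3y, whereas tumours 2 and 4, labelled female, had no UMI of Xist and 91.2 and 36.1 CPM of Ddx3y. The 4 Atf4D/D libraries followed their sex labels. Sex entered only alternative fits, and the genotype results are also given without each library. Libraries shared 2 to 14 barcodes a pair, at most 0.311% of the smaller library.

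Kcnj13 and Trpm1 encode ion channels, Kir7.1 and a melanocyte TRP channel, that are also known from retinal pigment epithelium and retina. Cck encodes cholecystokinin, a peptide hormone of gut and brain that melanocytes are not known for, Mgll the monoacylglycerol lipase that ends endocannabinoid signalling, Gsta4 a glutathione transferase that clears lipid aldehydes, and Tspan10 a tetraspanin of pigment cells. In melanocytes, pigment genes and Trpm1 are driven by the factor MITF, which binds E-box sequences in their promoters. Melanoma lines hold cells at several points between a pigmented and an undifferentiated state, and the same cells can turn to hypoxia, stress or cell cycle programmes.

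RefSeq promoter windows on GRCm38.p6, 250 bases before to 50 after a transcription start, were found for 5 of the 6 genes, Cck, Kcnj13, Mgll, Trpm1 and Tspan10, 7 windows in all. Windows are shown because these genes define the members and Trpm1 is a known target of MITF, whose E-boxes can be looked for. Of the 7, 1 window per gene is printed. The second windows of Mgll and Trpm1 are left out, and the 150 bases before their starts held none of the matches marked below. The 150 bases before the start are given 5′ to 3′ on the gene's strand, with capitals marking any match on either strand to CATGTG, to CACGTG, to TCATGTG, which contains CATGTG, to TAATCC, or to TGACGTCA.
Kcnj13 (chr1:87394730-87394879, minus strand): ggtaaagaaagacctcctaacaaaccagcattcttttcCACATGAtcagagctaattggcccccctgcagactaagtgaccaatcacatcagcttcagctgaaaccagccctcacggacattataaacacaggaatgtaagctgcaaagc
Trpm1 (chr7:64153685-64153834, plus strand): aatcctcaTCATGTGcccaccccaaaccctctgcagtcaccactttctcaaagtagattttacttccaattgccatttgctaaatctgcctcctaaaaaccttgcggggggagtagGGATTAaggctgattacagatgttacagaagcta
Tspan10 (chr11:120442481-120442630, plus strand): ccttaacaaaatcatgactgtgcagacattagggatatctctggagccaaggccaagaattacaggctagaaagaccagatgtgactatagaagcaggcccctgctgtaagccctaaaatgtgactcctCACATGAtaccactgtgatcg
Cck (chr9:121495695-121495844, minus strand): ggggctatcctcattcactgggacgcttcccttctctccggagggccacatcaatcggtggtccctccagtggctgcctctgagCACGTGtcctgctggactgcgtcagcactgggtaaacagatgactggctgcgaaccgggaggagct
Mgll (chr6:88724262-88724411, plus strand): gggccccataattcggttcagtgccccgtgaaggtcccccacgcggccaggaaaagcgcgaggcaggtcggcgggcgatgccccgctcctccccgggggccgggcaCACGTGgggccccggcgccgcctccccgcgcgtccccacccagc

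TCATGTG, the extended E-box, was present in the windows of Kcnj13 at -112, Trpm1 at -142 and Tspan10 at -21, where -1 is the base before the start, and in 3.77% of all 32851 promoter windows. CACGTG was present at -66 in Cck, at -44 in Mgll and at -229 in the second window of Trpm1, and in 7.15% of all windows. CATGTG, the extended form included, was in 14.2% of windows and in those of 4 of the 5 genes. TAATCC, a core of the retinal factors OTX2 and CRX, matched at -34 in Trpm1 only, against 7.06% of windows, and the cAMP element TGACGTCA was in none of the 7, against 1.79%. A match is a description of the letters and shows no binding.

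In the summed UMIs of members, the 6 genes of the score were higher than in the other melanoma barcodes of the same tumour in every tumour, which the choice of members fixed. Cck stood in members at 407, 206, 876 and 758 CPM in Atf4wt/wt tumours 1 to 4, and at 892, 516, 209 and 730 CPM in Atf4D/D tumours 1 to 4. In the other melanoma barcodes it was at 2.54 to 11.5 CPM. Among members Cck varied most from tumour to tumour, was low in Atf4wt/wt tumour 2 and Atf4D/D tumour 3, and overlapped between host genotypes. Members of both genotypes were cut at the same pooled limit on these genes, so levels in members cannot show how the genotypes compare. Kcnj13 ranged from 61.6 to 137 CPM in members and from 1.72 to 4.599 CPM in the others. Mgll was at 383 ± 108 CPM in members and 39.4 ± 12.4 CPM in the others (mean ± SD, n = 8 tumours, as for all values of members against others). Trpm1 stood at 671 ± 60.8 against 206 ± 19.9 CPM, Gsta4 at 382 ± 67.9 against 109 ± 22.2 CPM, and Tspan10 at 382 ± 25.3 against 173 ± 16.4 CPM. Outside the members Trpm1, Gsta4 and Tspan10 still stood above 100 CPM on average, and Cck and Kcnj13 at a few CPM.

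**Figure D1:**
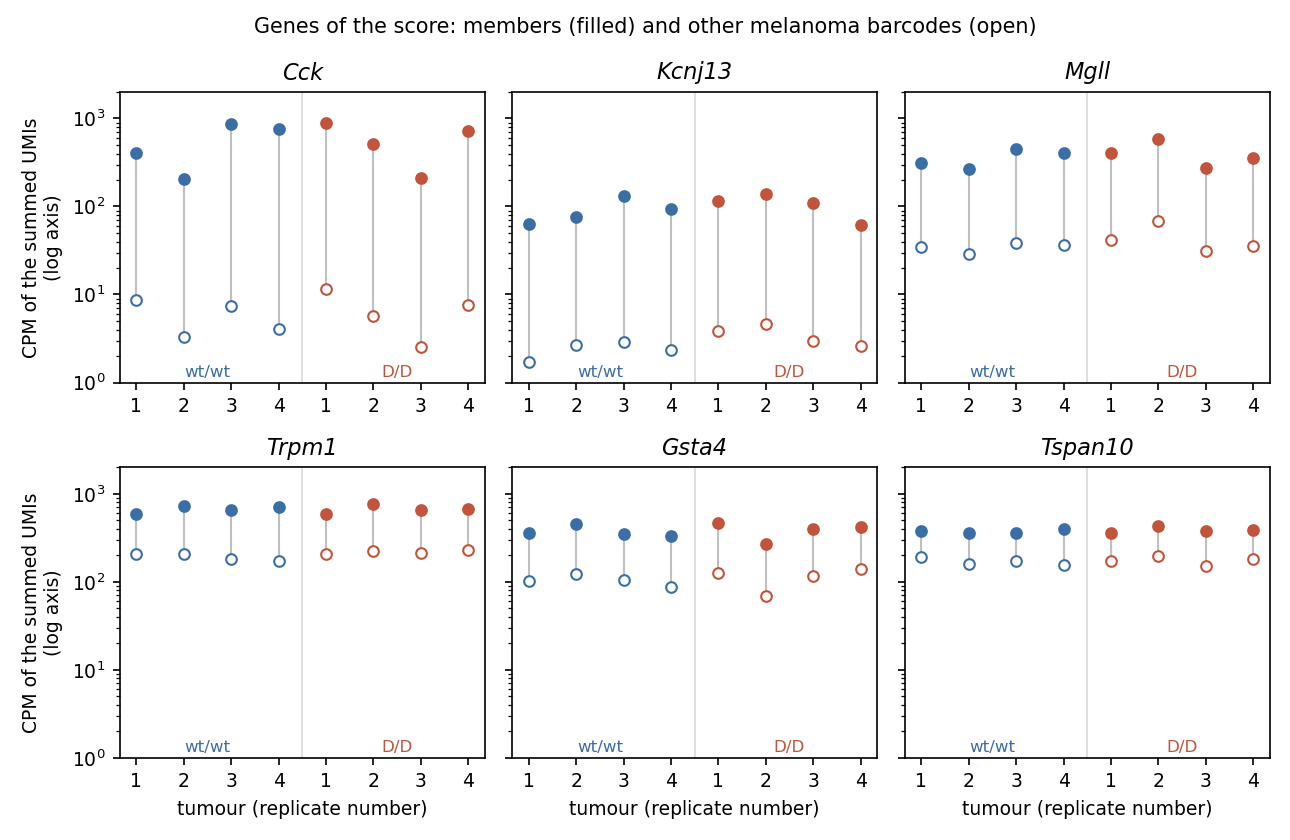
CPM of the summed UMIs (log axis) of the 6 genes of the score in each tumour, by replicate number and host genotype, with filled points for members and open points for the other melanoma barcodes of the same library. Cck and Kcnj13 are separated by the widest gaps, and filled points of the genotypes overlap for each gene. Members of both genotypes were cut at the same pooled limit on these genes, which bears on that overlap.

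Because these genes chose the cells, each was left out of the score in turn and read in the cells that the other 5 genes selected. Cck was then at 451 ± 262 CPM in the selected barcodes and 20.5 ± 10.2 CPM in the rest, a log2 ratio of 4.19 ± 0.86 that ran from 2.56 to 5.21 across tumours. The left-out ratio was 3.70 ± 0.10 for Kcnj13, 2.34 ± 0.25 for Mgll, 1.38 ± 0.18 for Trpm1, 1.30 ± 0.15 for Gsta4 and 0.84 ± 0.13 for Tspan10. All 6 were higher in 8 of 8 tumours. No test is attached, since the genes had been picked from these cells. Across single barcodes the correlations among the genes were weak, with a mean over tumours from 0.060 for Cck with Tspan10 to 0.241 for Mgll with Trpm1, and were above 0 in 8 of 8 tumours for each of the 15 pairs. Barcodes share library and depth, and these values are a description.

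Members were not uniform. Of the 2278, 160 (7.02%) had UMIs of all 6 genes, 735 of 5, 1187 of 4 and 196 of 3. Trpm1 was the largest term of the score in 45.8% of members, Mgll in 15.6%, Cck in 15.4%, Gsta4 in 12.2%, Tspan10 in 8.43% and Kcnj13 in 2.55%. After each barcode was thinned to 4000 UMIs, Cck was detected in 23.4% of members and 1.79% of other melanoma barcodes, and Kcnj13 in 20.9% and 1.07%. Mgll was detected in 64.0% and 12.2%, Trpm1 in 92.7% and 46.6%, Gsta4 in 70.6% and 29.5%, and Tspan10 in 78.5% and 46.9%. At this depth most members had no UMI of Cck, and most had none of Kcnj13. Without thinning, the shares with a UMI were 28.9% of members and 3.97% of the others for Cck, and 33.3% and 2.32% for Kcnj13, at median depths of 10134 and 10523 UMIs.

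Host barcodes were read for comparison. At the same 4000 UMIs, 9.05% of the 409 host barcodes, whose median depth was 5420 UMIs, had a UMI of Cck, 0.734% of Kcnj13, 5.13% of Mgll, 5.62% of Trpm1, 2.20% of Gsta4 and 3.67% of Tspan10. The host share of Cck differed between kinds of host barcode. Host barcodes with immune genes, at 1000 UMIs or more, held 6 UMIs of Cck over 541 barcodes, while those with fibroblast genes held 283 UMIs over 623 barcodes, 97.2 CPM, in 59 barcodes. The immune-type barcodes, in which 1.11% had a UMI of Cck at 4.92 CPM, gave the lower level, and the other melanoma barcodes stood at 6.35 CPM. Among fibroblast-type barcodes Cck stood at 18.4, 45.6, 0 and 17.8 CPM in Atf4wt/wt tumours 1 to 4 and at 101, 175, 0 and 136 CPM in Atf4D/D tumours 1 to 4, the third of these from 10 barcodes. Atf4D/D tumours 1, 2 and 4 were the highest, and they were also the 3 tumours with the largest shares of members. In the same barcodes Trpm1 totalled 46 UMIs and Kcnj13 3 UMIs, so that the ratio of Cck to Trpm1 was above that of members. Whether this Cck was made by host cells or came from free RNA or mixed barcodes was not tested.

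The score ran without a gap across melanoma barcodes. The lowest member scored 0.90918 and the highest barcode outside 0.90913, and 846 barcodes lay within 5% of the limit. The former held 7 UMIs of Kcnj13, 7 of Trpm1, 9 of Gsta4 and 3 of Tspan10 in 21215 UMIs, and none of Cck or Mgll. The latter held 1 of Mgll, 4 of Trpm1, 3 of Gsta4 and 6 of Tspan10 in 10644. A score of 0 was found in 1463 barcodes (6.42%), and the highest score was 2.83. When each barcode's UMIs were split at random into 2 equal parts, 55.7% of the barcodes chosen on the first part were in the top 10% on the second, against 4.93% of those not chosen, and the scores of both parts correlated at 0.70 across barcodes. Repeat membership ranged from 43.2% in Atf4wt/wt tumour 1 to 65.6% in Atf4D/D tumour 2. Membership of a single barcode is therefore in part set by counting noise, and values are given for sums over many barcodes.

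All melanoma barcodes were ordered by score, with members as group 10 and the rest cut into 9 groups of equal size. The 6 genes order the barcodes into these groups, so their levels along them follow from the rule and are given as a description. Cck was at 0.481 CPM in the lowest group, 9.02 in the eighth, 23.1 in the ninth and 582 in members. Kcnj13 likewise moved from 11.9 CPM in the ninth group to 98.2 in members. Trpm1 climbed with no such jump at the end, from 8.78 CPM in the lowest group to 173 in the fifth, 469 in the ninth and 671 in members. Pmel, which the score did not use, went from 1653 CPM in the lowest group to 4010 in the ninth and 5053 in members, and was higher at each step. With Cck left out of the score, the barcodes below the limit held 20.5 CPM of it, as given above, against 6.35 CPM with it in the score.

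**Figure D2:**
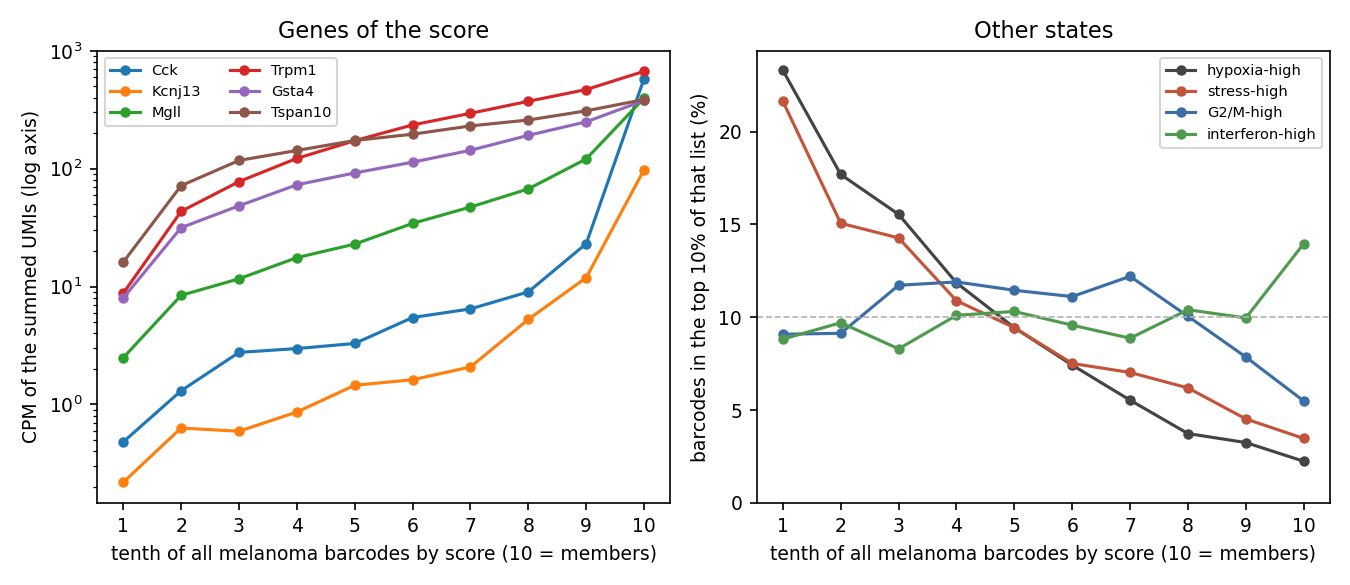
Left, CPM (log axis) of the 6 genes of the score in 10 groups of melanoma barcodes ordered by score, group 10 being the members. Right, the per cent of each group that lies in the top 10% of all melanoma barcodes by hypoxia, stress, G2/M or interferon genes, with a dashed line at 10%. The hypoxia-high share goes from 23.3% in the lowest group to 2.24% in members. The levels of the 6 genes along the groups are set by the score that orders them.

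Members and other melanoma barcodes were next compared gene by gene within each tumour, as the log2 ratio of CPM plus 1, over 7809 genes with a mean of at least 10 CPM. A gene was called where the mean ratio was at least 1, or at most -1, with the same sign in 8 of 8 tumours. This rule called 18 genes higher in members (0.231% of genes) and 20 lower (0.256%), 0.487% in either direction. At any size, 13.3% of genes were higher in 8 of 8 tumours and 15.7% were lower. No p-value is given, since the same cells chose the members.

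Of the 18 genes called higher, 6 were those of the score. Among the other 12 were the melanosome genes Oca2 and Gpr143. Oca2, which sets melanosome pH, stood at 88.4 ± 15.9 CPM in members and 32.2 ± 2.97 CPM in the others, and Gpr143, a melanosome receptor whose loss causes ocular albinism, at 59.4 ± 5.90 and 29.2 ± 3.13 CPM. Smtnl1, a smoothelin-like gene, was the highest by ratio, 25.4 ± 5.72 against 7.60 ± 2.04 CPM, a log2 ratio of 1.62 ± 0.22. Gsta2 (163 ± 9.36 against 59.8 ± 7.17 CPM) and Gm10639 (32.9 ± 3.19 against 11.8 ± 2.21 CPM) lie on chromosome 9 (78331018 to 78355788 and 78289923 to 78305525, GRCm38), close to Gsta4 (78182774 to 78209349), and are members of the same alpha-class transferase family, so that reads of near-identical copies may be split among them. In members chosen without Gsta4, Gsta2 was called as well, with a log2 ratio of 1.38. Gsta4 was also higher in those members (1.30 ± 0.15), and how reads were split among the copies was not tested. Enzymes of the lysosome and matrix were present too, with Smpd1, the acid sphingomyelinase, at 132 ± 12.3 against 59.6 ± 6.12 CPM and Hpse, heparanase, at 93.7 ± 20.7 against 42.3 ± 6.38 CPM. The remaining genes were the guidance gene Sema6d (log2 ratio 1.41 ± 0.21), the receptor Gpr37 (1.25 ± 0.20), the DNA repair gene Brca1 (1.18 ± 0.13), Thsd7a (1.11 ± 0.13) and the ADP-ribosyltransferase Art5 (1.10 ± 0.16).

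Most pigment genes were higher in members, but few by enough to be called. None of the 5 filter genes was called, and of 14 further melanosome and pigment genes 2 were, Oca2 and Gpr143. All 5 genes of the melanoma filter were higher in 8 of 8 tumours, with log2 ratios of 0.83 ± 0.12 for Pmel, 0.70 ± 0.09 for Tyr, 0.50 ± 0.12 for Tyrp1, 0.46 ± 0.05 for Mlana and 0.35 ± 0.05 for Dct. The pigment share of UMIs, a median of 1.83% in members and 1.28% in the others, entered the choice of melanoma barcodes but not the score. Of 14 further melanosome and pigment genes measured, 13 were higher in 8 of 8 tumours and none was lower, with a median log2 ratio of 0.40 against -0.03 over all genes. Slc24a5, a melanosome ion exchanger, stood at 1024 and 582 CPM, Myo5a, which carries melanosomes, at 285 and 171 CPM, and Slc45a2, a melanosome transporter, at 691 and 470 CPM in members and others. Mlph was the exception, at 120 and 111 CPM and higher in 6 of 8 tumours.

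Melanocyte transcription factors had no common direction. Mitf, the main melanocyte factor, was at 378 CPM in members and 331 CPM in the others, higher in 7 of 8 tumours with a log2 ratio of 0.20 ± 0.14. Sox10 (119 and 123 CPM) and Pax3 (240 and 228 CPM) had ratios of -0.04 ± 0.06 and 0.07 ± 0.06. Of 8 melanocyte factors measured, Tfeb was higher in 8 of 8 tumours (0.41 ± 0.28) and Tfap2a (-0.35 ± 0.15) and Ets1 (-0.14 ± 0.10) were lower, with a median of -0.03 over the list. Among 10 MITF target genes outside pigment synthesis, 6 were higher in 8 of 8 tumours, among them the kinase gene Cdk2 (233 and 159 CPM), the receptor gene Met (566 and 442 CPM) and Gpr137b (356 and 267 CPM), and Slc1a4 was lower. Gpnmb, the most abundant of them, was at 1811 and 1735 CPM and higher in 7 of 8. The 4 measured genes of neural crest and dedifferentiation had a median log2 ratio of -0.76, with Nes and Fn1 called lower, Vim at 1796 and 1911 CPM, and Sox9 higher in 8 of 8 tumours at 12.6 and 9.07 CPM. Fn1 is also a fibroblast gene, and fibroblast markers were lower in members as well, as given below.

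Although Kcnj13 and Trpm1 are also genes of the retinal pigment epithelium, most genes of that tissue were low or absent in members. Otx2, Rpe65, Rgr and Slc16a8 had no UMI in the 24714720 UMIs of members, which allows up to 0.121 CPM each, and of 16 genes on this list only Serpinf1 reached the 10 CPM minimum, at 31.5 and 38.6 CPM in members and others. The other 11 had UMIs in members below that minimum, among them Rdh5 (4.28 and 3.73 CPM), Mertk (2.81 and 1.97 CPM), Rlbp1 (2.70 and 2.09 CPM), Trpm3 (1.92 and 1.22 CPM), Best1 (0.210 and 0.0850 CPM) and Lrat (0.189 and 0.136 CPM). Mertk and Trpm3 were higher in members in 7 of 8 tumours, and the whole list summed to 47.5 ± 10.9 and 52.2 ± 17.1 CPM. Peptide hormone genes did not accompany Cck. The convertase gene Pcsk1 and the receptor genes Cckar and Cckbr also had no UMI in members, and the 4 measured processing genes, Cpe, Pam, Tpst1 and Tpst2, were neither higher nor lower in 8 of 8 tumours. Nppb, a natriuretic peptide gene, was called lower, at 11.6 and 28.5 CPM. Nor did other potassium or TRP channel genes follow Kcnj13 and Trpm1, since none of the 4 measured held 1 direction in 8 of 8 tumours, and the most abundant, Trpm7, was at 50.8 and 47.0 CPM. Of 5 monoacylglycerol, endocannabinoid and other lipid genes beside Mgll, Abhd12, a lipase with the same substrate, was higher in 8 of 8 (99.9 and 70.4 CPM). So was Daglb (12.3 and 9.30 CPM), while Plin2, of lipid droplets, was lower in 8 of 8 (117 and 134 CPM). Glutathione genes were divided, with Mgst1, Gpx1, Gstp1, Gstm1 and Gstm5 higher in 8 of 8 tumours and Slc7a11, Gclc, Gclm and Txnrd1 lower, among 14 measured. The most abundant, Gpx4, was at 650 and 692 CPM and lower in 7 of 8. Of 13 tetraspanin genes, 4 were higher, among them Tspan3 (129 and 112 CPM), and 1, Cd9, was lower in 8 of 8.

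Genes of cAMP signalling gave a mixed picture. Pde4d, which degrades cAMP, was higher in 8 of 8 tumours at 65.1 and 32.9 CPM, as was the nuclear receptor gene Nr4a3 at 84.2 and 59.7 CPM. Crem, Per1, Nr4a1 and Nr4a2 were not of the same sign in 8 of 8, and 4 of 12 genes on the list were higher, the others being Ppargc1a (181 and 145 CPM) and Dct, which is also a gene of the melanoma filter.

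The genes called lower were of other kinds. The lowest by ratio was Espn, an actin-bundling gene, at 20.7 ± 8.10 CPM in members and 71.0 ± 28.5 CPM in the others, a log2 ratio of -1.72 ± 0.36. Ero1l, the oxidase of disulphide formation that hypoxia induces, stood at 183 ± 39.9 and 462 ± 95.2 CPM. Nes, which encodes nestin of undifferentiated neural crest cells, was at 11.1 ± 2.80 and 32.6 ± 4.33 CPM, Fn1, fibronectin, at 21.4 ± 4.99 and 60.9 ± 19.0 CPM, and S100a6 at 15.3 ± 4.75 and 42.1 ± 14.9 CPM. The ER retrieval receptor gene Kdelr3 (-1.55 ± 0.32), Lhfp (-1.54 ± 0.28) and the adaptor gene Grb14 (-1.54 ± 0.45) were also called lower. Col1a1 and Col3a1, collagen genes of fibroblasts, completed the 10 lowest.

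Most hypoxia and integrated stress response genes were lower in members. Of the hypoxia, integrated stress response and unfolded protein response genes measured, only Ero1l was called. Of 15 hypoxia and glycolysis genes measured, 14 were lower in 8 of 8 tumours and Aldoa was not. Slc2a1, the glucose transporter, stood at 44.1 and 76.6 CPM, Ndrg1 at 30.5 and 54.5 CPM and Vegfa at 42.0 and 67.2 CPM in members and others, and the median log2 ratio of the list was -0.54. Of 13 genes of the integrated stress response, 11 were lower, with a median of -0.46. The amino acid synthesis genes Phgdh (342 and 403 CPM) and Asns (234 and 300.0 CPM) were among them. Trib3 was at 55.7 and 104 CPM, Cebpb at 35.3 and 68.2 CPM, Atf3 at 31.2 and 56.7 CPM, and Atf4 itself, which is intact in the injected line, at 287 and 372 CPM. Of 13 unfolded protein response genes, 4 were lower in 8 of 8, among them the ER chaperone genes Hspa5 at 1112 and 1457 CPM and Hsp90b1 at 1061 and 1319 CPM. Of 11 immediate early genes, 3 were lower, Jun at 254 and 312 CPM, and Fos, at 330 and 299 CPM, was higher in 7 of 8.

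Cycling genes also tended to be lower, though none of the 14 G2/M or 14 S-phase genes was called. All 14 G2/M genes were lower in 8 of 8 tumours with a median log2 ratio of -0.73, Mki67 at 108 and 197 CPM, Top2a at 176 and 290 CPM and Birc5 at 156 and 226 CPM. Of 14 S-phase genes, 8 were lower, with a smaller median of -0.19, Rrm2 at 150 and 179 CPM. Of 7 CDK inhibitor and p53 genes, 4 were lower, among them Cdkn1a, which encodes the CDK inhibitor p21, at 93.0 and 162 CPM, and Cdkn2c was higher. Interferon-stimulated genes went the other way, with 6 of 9 higher in 8 of 8 tumours, none of them called, and a median of 0.44. Ifit3 was at 31.5 and 15.2 CPM, Bst2 at 248 and 177 CPM and Isg15 at 80.4 and 58.1 CPM, while Cxcl10 was lower in 7 of 8, at 47.5 and 71.5 CPM.

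**Figure D3:**
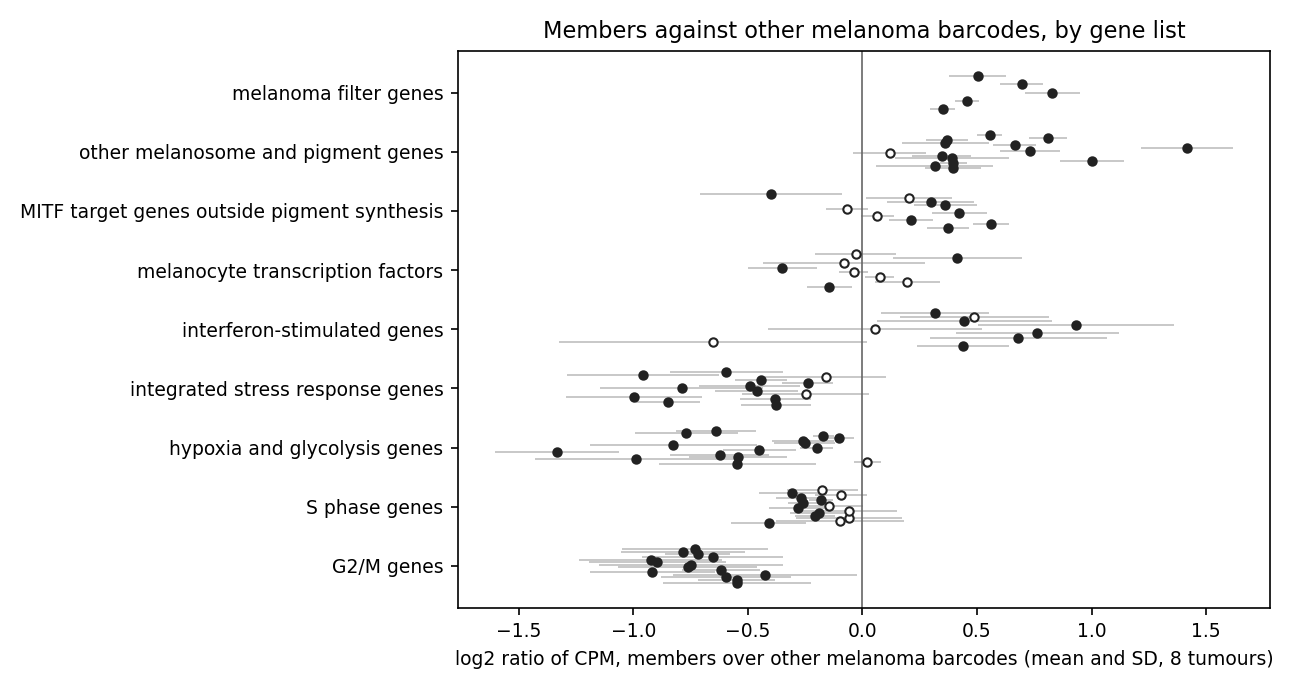
Log2 ratio of CPM between members and other melanoma barcodes for the genes of 9 lists, each point 1 gene with the mean and SD over 8 tumours, filled where the sign is the same in 8 of 8 tumours. Pigment genes lie above 0, and hypoxia, stress response and G2/M genes lie below 0, apart from the open points.

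The same was seen barcode by barcode. Barcodes in the top 10% of all melanoma barcodes by the hypoxia list were 2.07 ± 1.70% of members and 11.1 ± 5.605% of the others, lower in members in 8 of 8 tumours. For the stress list the shares were 3.20 ± 2.40% and 11.4 ± 4.70%, and for the G2/M list 5.21 ± 1.63% and 10.4 ± 1.22%, again lower in 8 of 8. By the interferon list they were 15.2 ± 9.07% and 9.87 ± 6.01%, higher in 8 of 8. Thinning to 4000 UMIs left hypoxia at 2.90% and 10.99% and G2/M at 5.46% and 10.3%. Depth differed little, as the median UMI count of members was 0.951 of that of the others, lower in 8 of 8 tumours, and the median mitochondrial share was 5.63 ± 0.52% against 5.41 ± 0.42%. The 13 mitochondrially encoded genes had a median log2 ratio of 0.03 and the 80 ribosomal protein genes of -0.05, and the nuclear RNA Malat1 stood at 6386 and 6736 CPM. Of the ribosomal protein genes 31 were lower and 0 higher in 8 of 8 tumours, and of the mitochondrial genes 2 were lower and 3 higher. Over all genes 15.7% were lower and 13.3% higher in 8 of 8.

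RNA of other cell types was low in members. The 8 fibroblast markers summed to 25.3 ± 25.9 CPM in members and 69.6 ± 63.1 CPM in the others, lower in members in 8 of 8 tumours, with Col3a1 as the most abundant at 266 UMIs and no marker at 0. The highest sums in members were in Atf4D/D tumours 4 and 1, at 71.7 and 59.4 CPM, and the lowest in Atf4D/D tumour 3 and Atf4wt/wt tumour 2, at 3.495 and 3.67 CPM. Macrophage markers summed to 16.4 ± 4.52 and 24.4 ± 12.8 CPM, and the most abundant was Cd68 at 147 UMIs. The 8 T and NK cell markers had no UMI in members. Dendritic cell markers were at 6.53 and 6.51 CPM, 91.7% of it Cd74, with Flt3, Itgax, Cd209a and Xcr1 at 0. Endothelial markers were at 2.20 and 2.83 CPM with Cdh5 at 0, and erythroid markers at 0.198 and 0.591 CPM. The keratinocyte and Schwann list was higher in members in 8 of 8, 321 and 230 CPM, with Krt5, Krt10 and Krt14 at 0 and 73.4% of its UMIs from S100b, a gene that melanocytes express. The part of fibroblast RNA in the lower Col1a1, Col3a1 and Fn1 of members was not tested.

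Whether members were more frequent with an Atf4D/D host was then asked, a comparison that the pooled rule did not use. They were 7.27% (342 of 4702; exact Clopper-Pearson 95% binomial interval 6.55 to 8.05), 7.97% (208 of 2610; 6.96 to 9.08), 8.93% (182 of 2037; 7.73 to 10.3) and 7.91% (193 of 2440; 6.87 to 9.05) of melanoma barcodes in Atf4wt/wt tumours 1 to 4. In Atf4D/D tumours 1 to 4 they were 13.03% (309 of 2372; 11.7 to 14.5), 16.1% (441 of 2742; 14.7 to 17.5), 6.70% (215 of 3211; 5.86 to 7.62) and 14.5% (388 of 2669; 13.2 to 15.9). Intervals cover counting error only. Atf4D/D tumours 1, 2 and 4 lay above all Atf4wt/wt tumours, and Atf4D/D tumour 3 was the lowest of the 8, so the genotypes overlapped. The means were 8.02 ± 0.69% and 12.6 ± 4.12% (n = 4 each), a difference of 4.56 percentage points that did not pass an exact two-sided permutation test (p = 0.143, 70 assignments, smallest possible p 0.0286). Without Atf4D/D tumour 3, which also had the fewest host barcodes, 36 against 63 to 350 in the others, the difference was 6.53 points with p = 0.0286, the smallest this exact test can give. Leaving that tumour out was part of a planned series of omissions, and no other omission brought p under 0.05. The mean score over all melanoma barcodes, 0.462 ± 0.024 and 0.531 ± 0.055, gave p = 0.114 in the same exact permutation test.

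**Figure D4:**
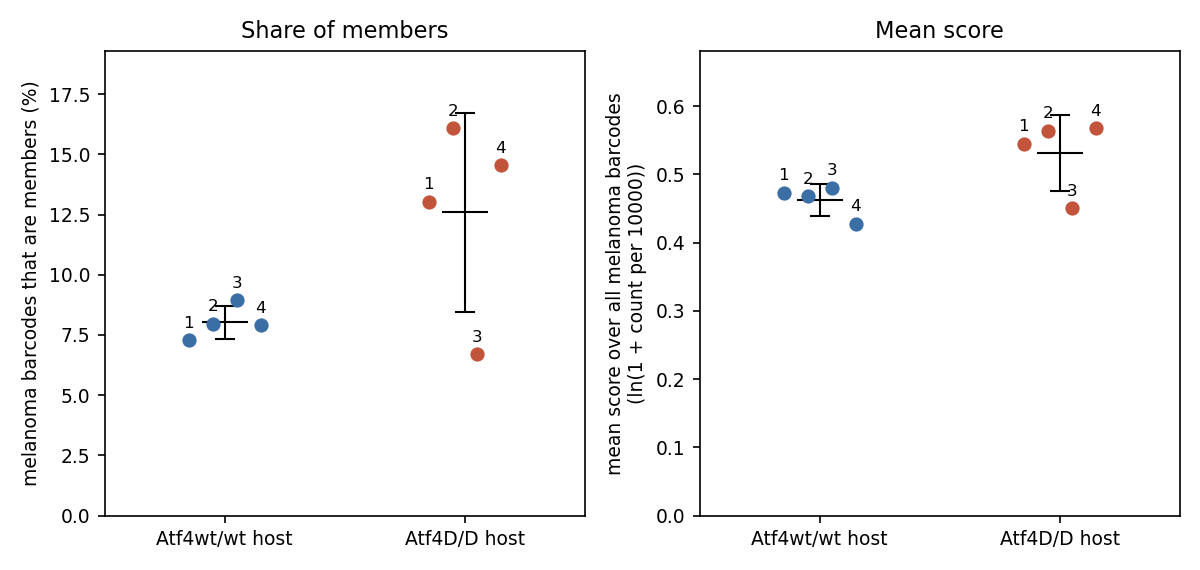
Per cent of melanoma barcodes that are members (left) and mean score over all melanoma barcodes (right) in each tumour, numbered by replicate, with the mean and SD of the 4 tumours of each host genotype. Atf4D/D tumour 3, at 6.70%, lies under all others, and Atf4D/D tumours 1, 2 and 4 lie between 13.03% and 16.1%.

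The share was also computed outside other states. Outside the hypoxia-high barcodes members were 8.57 ± 0.79% and 13.97 ± 4.43% of barcodes (exact permutation p = 0.143), and outside the interferon-high barcodes 7.497 ± 0.62% and 12.1 ± 4.13% (exact permutation p = 0.143). Outside the stress-high barcodes they were 8.83 ± 1.11% and 13.4 ± 4.30% (exact permutation p = 0.143). These 3 comparisons were added after the data were seen. Outside the G2/M-high barcodes, where no test was run, members were 7.63, 8.65, 9.43 and 8.36% in Atf4wt/wt tumours 1 to 4. In Atf4D/D tumours 1 to 4 they were 13.6, 16.7, 6.94 and 15.3%. Outside the S-phase-high barcodes, also without a test, the shares were 7.36, 8.08, 9.08 and 8.14%, and 13.3, 16.15, 6.69 and 14.9%. The part of fibroblast RNA, cell cycle states and the number of host barcodes in the difference was not tested. Summed over all melanoma barcodes of a tumour, members included, none of the 6 genes passed the threshold between genotypes in edgeR (smallest adjusted p 0.408, for Trpm1, log2 fold change 0.22, SE 0.09). The largest log2 fold changes were 0.78 (SE 0.33) for Kcnj13, 0.75 (SE 0.55) for Cck and 0.59 (SE 0.29) for Mgll. Their edgeR adjusted p-values were 0.42, 0.64 and 0.47.

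Within members, expression was compared between host genotypes by edgeR's quasi-likelihood test on the 8 sums with Benjamini-Hochberg adjustment over 9892 genes, and CPM are here scaled by edgeR's TMM factors. At an adjusted p under 0.05, 6 genes were higher (0.0607%) and 5 lower (0.0505%) in Atf4D/D hosts, 0.111% in all. Unadjusted p was under 0.05 for 709 genes, 7.17%. No test is given for the 6 genes of the score, since the same genes, pooled over both genotypes, chose the members. RNA of other cell types also varied in the same sums. The 8 fibroblast markers summed to 10.1, 3.67, 12.98 and 21.8 CPM in members of Atf4wt/wt tumours 1 to 4 and to 59.4, 19.4, 3.495 and 71.7 CPM in those of Atf4D/D tumours 1 to 4, highest in Atf4D/D tumours 1 and 4 and overlapping through tumours 2 and 3. In the other melanoma barcodes they summed to 42.8, 17.3, 20.9 and 64.4 CPM and to 147, 81.8, 4.703 and 177 CPM. Col3a1, the 1 of these markers tested in members, had an unadjusted p of 0.00977 and an adjusted p of 0.600 in edgeR, and 2 of 7 tested in the others were higher at an unadjusted p under 0.05, with none called. Dendritic cell markers, almost all Cd74, summed in members to 4.75, 9.63, 1.92 and 28.4 CPM in Atf4wt/wt tumours 1 to 4 and to 4.001, 0.633, 0.388 and 2.46 CPM in Atf4D/D tumours 1 to 4, highest in Atf4wt/wt tumour 4 and overlapping. Cd74 had an unadjusted p of 0.00108 and an adjusted p of 0.296 in edgeR. The dendritic markers Flt3, Itgax, Cd209a and Xcr1 had no UMI in members, and whether the Cd74 came from dendritic cells was not tested. The part of fibroblast RNA, and of any dendritic cell RNA, in the genotype differences below was not tested either.

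Enpp2, autotaxin, which makes lysophosphatidic acid, stood at 66.8, 68.4, 75.0 and 66.1 CPM in members of Atf4wt/wt tumours 1 to 4 and at 102, 96.4, 105 and 100.2 CPM in Atf4D/D tumours 1 to 4. The groups did not overlap, as was so for 4.2% of all genes tested, and the log2 fold change was 0.55 (SE 0.09, edgeR adjusted p = 0.0212). Phyhipl was at 5.05, 4.25, 4.53 and 3.89 CPM against 14.9, 18.7, 9.04 and 12.7 CPM, a log2 fold change of 1.64 (SE 0.26, edgeR adjusted p = 0.0212). Fscn1, the actin bundler fascin, was at 7.46 ± 0.86 and 16.5 ± 4.34 CPM (mean ± SD, n = 4 tumours a genotype, as for the genes that follow), and Kctd2 at 4.24 ± 1.79 and 13 ± 3.91 CPM. Phyhipl, Fscn1 and Kctd2 rested on few UMIs in Atf4wt/wt tumours. In members of Atf4wt/wt tumours 1 to 4, 3 UMIs of a gene were 0.891, 1.375, 1.44 and 1.67 CPM before TMM scaling. Eno1, an enolase of glycolysis, was at 496 ± 35.7 and 717 ± 73.2 CPM and Ftl1-ps1 at 102 ± 17.7 and 162 ± 19.5 CPM, both with near-identical copies elsewhere in the genome that could take a part of the reads.

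Of the genes that were lower, Nr4a3, a nuclear receptor gene induced by cAMP, stood at 109, 119, 100.2 and 90.0 CPM in Atf4wt/wt tumours 1 to 4 and at 56.0, 72.9, 64.4 and 66.3 CPM in Atf4D/D tumours 1 to 4. The groups did not overlap, and the log2 fold change was -0.69 (SE 0.11, edgeR adjusted p = 0.0212). Pde10a, which degrades cAMP and cGMP, was at 113, 103, 115 and 132 CPM against 91.8, 67.5, 68.5 and 59.3 CPM (-0.69, SE 0.12, edgeR adjusted p = 0.0314). These were the 2 of 12 tested cAMP-responsive genes that passed, both lower. On this list 6 genes were lower and 0 higher at an unadjusted p under 0.05, with a median log2 fold change of -0.26. Klf2, a transcription factor gene, was at 76.5 ± 17.4 and 42.6 ± 5.13 CPM, Eno3, the muscle enolase, at 40.5 ± 3.78 and 24.6 ± 1.49 CPM, and Gm42418, a noncoding locus over a ribosomal RNA repeat, at 1367 ± 541 and 595 ± 47.9 CPM. No gene of the pigment, hypoxia, stress response, interferon, S-phase or G2/M lists passed in members. At an unadjusted p under 0.05, 6 of 15 hypoxia genes were higher (list median log2 fold change 0.24), 4 of 12 interferon genes lower (-0.64) and 21 of 80 ribosomal protein genes lower with 1 higher (-0.16), beside 377 higher and 332 lower of all 9892 genes, whose median was 0.00. The number of calls varied with the tumours included. The count of 11 fell to 0 without Atf4wt/wt tumour 2 or 3, to 1 without Atf4wt/wt tumour 1 or Atf4D/D tumour 1, to 2 without Atf4D/D tumour 4 and to 3 without Atf4wt/wt tumour 4, and was 13 without Atf4D/D tumour 2 and 20 without Atf4D/D tumour 3. None of the 11 genes reversed its direction in any of these omissions.

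**Figure D5:**
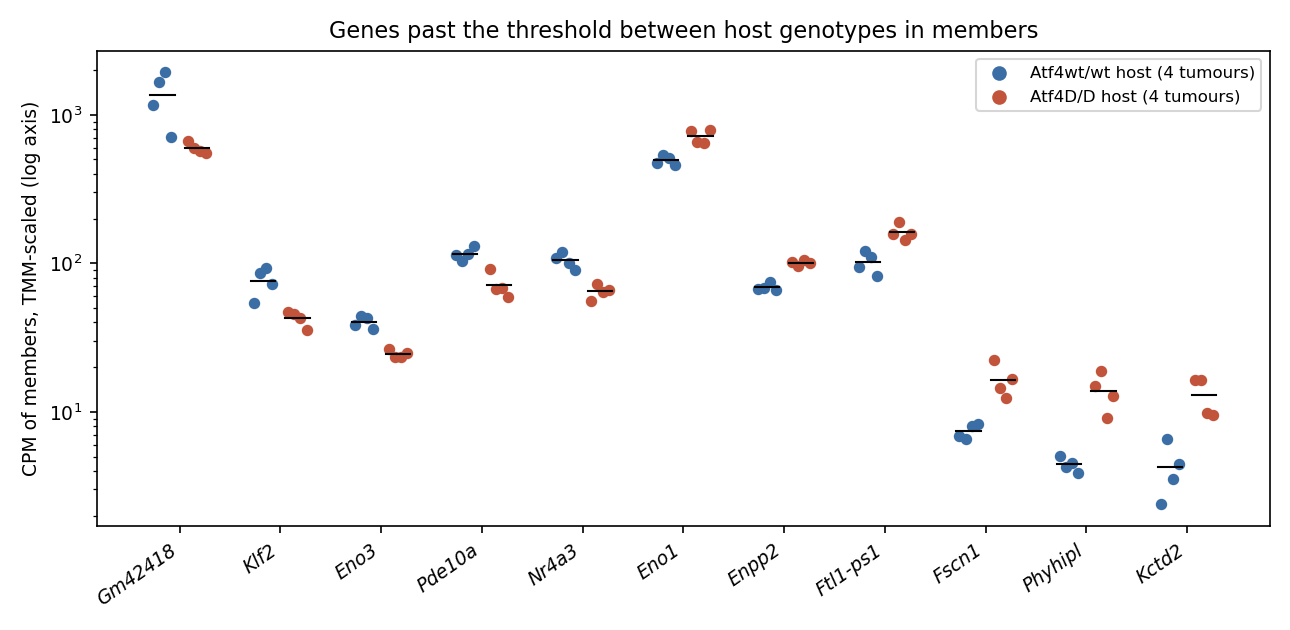
TMM-scaled CPM (log axis) in members of the 11 genes past the threshold between host genotypes, 4 tumours of each host, with a bar at each mean. The 5 genes on the left are lower and the 6 on the right higher in Atf4D/D hosts, with no overlap between genotypes for any of the 11.

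In the other melanoma barcodes no gene of 12452 passed the same edgeR test, while 1429 (11.5%) had an unadjusted p under 0.05 and DESeq2 called 108. Levels of the genotypes did not overlap for 6.34% of these genes. The 11 genes had the same sign there, with log2 fold changes of 0.46 (SE 0.09) for Enpp2, 1.204 (SE 0.30) for Phyhipl, -0.51 (SE 0.14) for Nr4a3 and -0.82 (SE 0.12) for Pde10a. Lists were also read there at an unadjusted edgeR p under 0.05. Of 12 cAMP-responsive genes 8 were lower and 0 higher (median log2 fold change -0.28). Of 14 interferon genes 7 were lower (-0.70), and of 16 hypoxia genes 3 were higher (0.29). Of 80 ribosomal protein genes 12 were lower and 1 higher (-0.12), beside 757 higher and 672 lower of all 12452 genes. The difference between members and others was tested itself, as an interaction in edgeR over 16 sums with the tumour as a block. None of 12045 genes passed, with 642 (5.33%) at an unadjusted p under 0.05, so no genotype response was shown to be particular to members.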

How the data were processed

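Single-cell suspensions of 8 tumours were sequenced as 10x 3′ libraries, 1 per tumour. The authors deposited UMI counts, not normalized, for 31053 features in each barcode, made with Cell Ranger 3.1.0 on GRCm38 according to the submitters' processing notes, which also name Seurat 3.2.1. Every column used belonged to a sample of the series, and 0 columns of other samples were found. Cells were not filtered for doublets beyond the limits on genes and UMIs, and no doublet caller was run.

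Members were chosen as described above. Their UMIs, and those of the other melanoma barcodes, were summed per tumour. Host genotypes were compared on these sums with edgeR 4.0.16 (quasi-likelihood, TMM scaling, filterByExpr, Benjamini-Hochberg adjustment, threshold 0.05) in R 4.3.3, with DESeq2 1.42.0 as an alternative. Shares were compared by an exact permutation test over tumours. Members and others were compared within tumours on log2(CPM + 1), a scale that understates changes of low genes. The scripts were tested on simulated data. Each tumour is a separate host, and P-values measure the spread between tumours that carry 1 injected line.

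The members, gene lists and tests were chosen with earlier results of these data known. Genes were named by a fixed rule: those of the score and of the melanoma filter, Atf4, the 15 highest and 10 lowest outside the score by mean ratio among genes called, genes past the threshold between genotypes, and for each list its called genes or its 3 most abundant. Further list genes named here were chosen after their values were seen. Alternatives covered the score genes, the share taken, depth, mitochondrial limit, scaling, filter, tool, sex label, replicate block and each tumour left out. Gene positions are from GENCODE vM21 and promoters from RefSeq.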

Additional observations from a re-analysis of the deposited data

Results flagged for a closer look

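Dct, a pigment gene of the melanoma filter, stood at 7516 CPM in members of Atf4D/D tumour 2, above the nearest Atf4D/D tumour at 6285 CPM. That gap was 0.899 of the range of the 4 Atf4D/D tumours, past the critical value at the 95% level in Dixon's test for a single extreme sample. Chance marks about 1 in 20 groups in this test, and 1 of 72 groups was marked here. Its cause was not tested.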

How the results depend on the processing

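The difference in the share of members between host genotypes ran from 3.40 to 6.53 percentage points when each tumour was left out, and passed the exact permutation test only without Atf4D/D tumour 3 (6.53 points, p = 0.0286). Under 24 other settings it kept its direction and missed the threshold. Genes called between genotypes in members numbered 11 and ranged from 0 to 20 when each tumour was left out, with 119 without the filter on low counts, 3 with the top 5% by score and 2 with the top 20%. DESeq2 called 14, of which 10 were shared. For the other melanoma barcodes the count of 0 became 108 with DESeq2 and 29 without the filter, and ranged from 0 to 15 with a tumour left out, 15 without Atf4D/D tumour 3 and 2 without Atf4wt/wt tumour 4. The interaction gave 10 genes without the filter and 0 under the other settings run. Between members and others, 38 genes were called, with 80 for the top 5%, 25 with a pseudocount of 5 CPM, and 14 at a mean of at least 50 CPM, where fewer genes (3060) were tested. The cause of the other shifts was not tested. No direction reversed.

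Replicate numbers did not pair the tumours, since same-numbered tumours correlated at -0.017, -0.147, -0.103 and -0.140 in members and none of 4 Atf4wt/wt tumours correlated best with its own number. With the replicate block, 10 genes were called in members, 6 of them shared, and 0 in the others, and the share gave an exact sign-flip p of 0.25, where the smallest possible is 0.125. Male hosts by label gave a difference of 4.33 points (exact permutation p = 0.4, smallest possible 0.1), and with the sex label as a covariate 9 genes were called. These labels go against the RNA of the 4 Atf4wt/wt hosts. Counts of replicate tumours differed beyond counting noise, by a chi-square of 2.38 to 8.39 per gene in members, and whether depth limits the genotype test was not tested.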
